A study of Mus musculus with 5 samples.

Results

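The B lineage genes described here are 9 genes that mark commitment to the B cell lineage and assembly of its receptor, namely Ebf1, Pax5, Pou2af1, Vpreb1, Igll1, Cd79a, Cd79b, Blnk and Fcrla. They were taken by name from 24399 genes, each represented by its RefSeq transcript with the most reads. RNA was sequenced from LSK cells, a bone marrow fraction sorted as negative for lineage antigens and positive for Sca1 and cKit, in which stem and multipotent progenitor cells are found. The C57BL/6 mice were 12 months old, in a study of a germ line knockout whose design names wild-type, heterozygous and homozygous animals. Titles name 3 libraries KO and 2 libraries WT. The genotype field gives a heterozygous state for the libraries titled KO and wild type for those titled WT, so the libraries titled KO are called KO-labelled. No label says that each library is a different animal, and p-values then cover only the differences among these samples, which may be technical.

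B cells arise from lymphoid progenitors in which the transcription factor Ebf1 opens the B cell programme and Pax5 then fixes commitment. Pro-B and pre-B cells pair a surrogate light chain, made of the Vpreb1 and Igll1 proteins, with the immunoglobulin heavy chain. This pre-B cell receptor signals through the Cd79a and Cd79b chains, the kinase Syk and the adaptor Blnk. Committed B cells carry lineage antigens that an LSK sort removes, so that low levels of the genes are part of the setting.

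The level of each gene is given as CPM, its counts scaled to the library total with a correction for composition (TMM). Of the 9 genes, Pax5 lay under 1 CPM in all 5 libraries. Igll1 was under 1 CPM in 4 libraries, and Ebf1 and Vpreb1 in 3 each. Cd79a, Cd79b, Blnk, Fcrla and Pou2af1 were above 1 CPM in every library. Pax5, at 0 to 20 counts per library, failed the filter on low counts and was not tested, which left 8 tested genes. Total counts with 1 transcript per gene were 36060320 to 39691066 in KO-labelled and 29964556 and 38674416 in WT libraries, so that 3 counts equalled 0.0756 to 0.1001 CPM.

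Fcrla was the 1 tested B lineage gene whose difference between the groups passed the threshold given below. It rose 3.77-fold in the KO-labelled libraries, while Pou2af1 had a fold change of 2.77 that missed the threshold. The genes of the earliest B lineage steps, Ebf1, Vpreb1 and Igll1, had an SD between the WT libraries that was wider than the distance between the group means. Cd79a and Cd79b had fold changes of 1.09 and 1.13 that did not pass. The threshold was an adjusted p of 0.05 over all 14565 tested genes in edgeR's quasi-likelihood test, under which 1.97% of tested genes were called, 0.79% higher and 1.18% lower. Against 0.79%, 1 of the 8 tested B lineage genes was called higher, and 0 were called lower. At an unadjusted p under 0.05, 2 were higher and 0 lower, DESeq2 called 2 higher and 0 lower, and limma 1 higher and 0 lower. Of all 14565 tested genes, 2007 had an unadjusted p under 0.05. Over all genes DESeq2 called 264 higher and 311 lower, and limma 247 higher and 377 lower. A bulk library cannot tell fewer or more cells of a type from less or more RNA per cell, and this touches every value below.

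**Figure D1:**
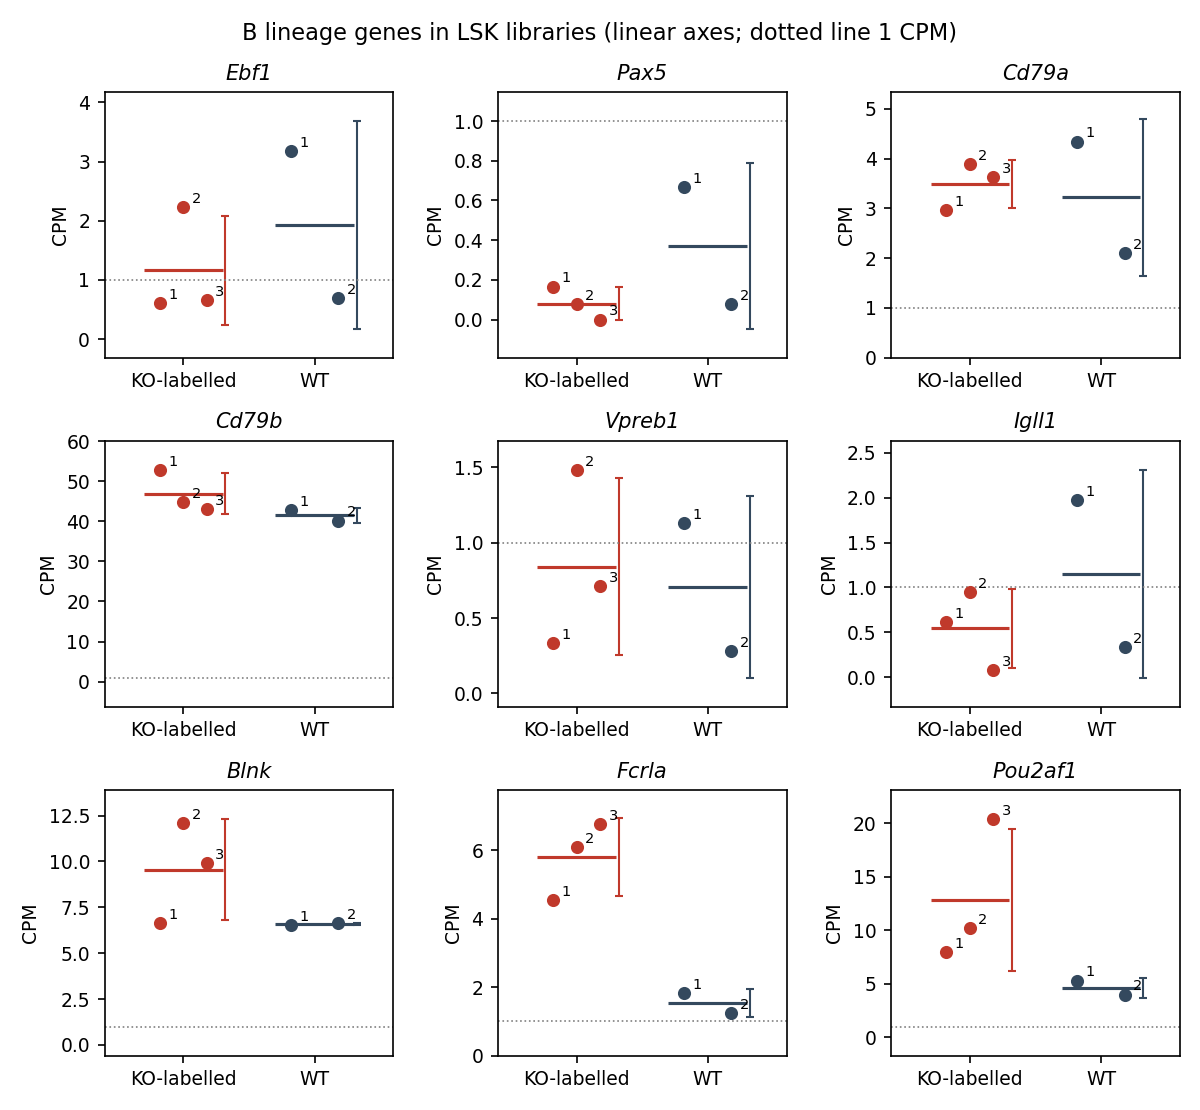
Level of each of the 9 B lineage genes in CPM (linear vertical axes) in the 3 KO-labelled and 2 WT libraries; points are libraries with their number, horizontal lines are group means, and bars are ± SD. Fcrla lay at 4.54 to 6.76 CPM in KO-labelled libraries, all above the WT libraries at 1.83 and 1.25 CPM, whereas Ebf1, Pax5, Vpreb1 and Igll1 were spread widely within a group.

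The sequence before the transcription start is shown for Fcrla, Pou2af1 and Blnk, whose log2 fold changes were the highest of the 8 tested genes, and for the surrogate light chain genes Vpreb1 and Igll1, which had KO library 2 and WT library 1 as their highest pair. The 250 bases before the annotated start were taken from RefSeq on GRCm38.p6, in the direction of transcription, and 8 of the 9 genes matched that table with 9 windows. Capitals mark exact matches, on either strand, to the octamer ATGCAAAT, the EBF-type site CCCNNGGG, the E-boxes CAGCTG and CAGGTG, or the PU.1-type site AGGAAGT.
Fcrla, chr1:170927584-170927833, minus strand: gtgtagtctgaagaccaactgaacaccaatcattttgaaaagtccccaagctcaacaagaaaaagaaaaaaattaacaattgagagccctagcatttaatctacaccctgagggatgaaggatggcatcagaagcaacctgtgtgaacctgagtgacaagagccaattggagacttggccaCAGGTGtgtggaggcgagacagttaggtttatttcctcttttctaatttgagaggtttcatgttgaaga
Pou2af1, chr9:51213440-51213689, plus strand: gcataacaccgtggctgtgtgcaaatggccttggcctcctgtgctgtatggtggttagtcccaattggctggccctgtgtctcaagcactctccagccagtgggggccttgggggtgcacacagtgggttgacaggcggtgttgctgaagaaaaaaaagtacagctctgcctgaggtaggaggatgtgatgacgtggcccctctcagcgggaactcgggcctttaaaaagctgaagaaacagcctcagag
Blnk, chr19:40994222-40994471, minus strand: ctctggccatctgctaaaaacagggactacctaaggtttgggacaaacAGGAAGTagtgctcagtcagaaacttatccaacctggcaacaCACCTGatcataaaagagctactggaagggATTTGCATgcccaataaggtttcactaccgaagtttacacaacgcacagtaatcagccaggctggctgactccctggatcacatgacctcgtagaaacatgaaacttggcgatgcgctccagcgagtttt
Vpreb1, chr16:16869256-16869505, minus strand: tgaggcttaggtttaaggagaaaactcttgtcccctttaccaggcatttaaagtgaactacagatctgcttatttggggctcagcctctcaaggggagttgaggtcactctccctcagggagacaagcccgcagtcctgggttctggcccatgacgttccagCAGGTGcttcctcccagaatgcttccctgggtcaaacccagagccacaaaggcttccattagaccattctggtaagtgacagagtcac
Igll1, chr16:16863986-16864235, minus strand: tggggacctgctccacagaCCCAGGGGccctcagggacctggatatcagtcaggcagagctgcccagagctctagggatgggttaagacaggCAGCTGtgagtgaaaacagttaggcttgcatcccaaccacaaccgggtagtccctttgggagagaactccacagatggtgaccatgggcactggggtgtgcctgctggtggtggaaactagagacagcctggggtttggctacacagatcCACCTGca

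The Blnk window held the octamer, the site bound by the POU factors that Pou2af1 assists, at positions -130 to -123 before the start. It was the 1 gene of the 8 with an octamer, which 1.6% of all 32851 RefSeq promoter windows of this length held. Blnk also held a PU.1-type site, as did Cd79a, against 7.69% of all windows. The E-box CAGGTG was found in 5 genes, Cd79a, Vpreb1, Igll1, Blnk and Fcrla, and in 17.2% of all windows. Igll1 carried the EBF-type site (11.8% of all windows) and the E-box CAGCTG (13.0%). The windows of Pou2af1 and Pax5 and both windows of Ebf1 held none of these letters. A match is a description of the sequence and not a site shown to be bound, and no match says only that these letters are not in the window.

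Fcrla encodes an Fc receptor-like protein that stays inside B cells. It stood at 4.54, 6.09 and 6.76 CPM in KO-labelled libraries 1 to 3, against 1.83 and 1.25 CPM in WT libraries 1 and 2. All 3 KO-labelled libraries lay above both WT libraries. The group levels were 5.80 ± 1.14 CPM (SD, n = 3) in KO-labelled and 1.54 ± 0.411 CPM (SD, n = 2) in WT libraries. The log2 fold change was 1.91 ± 0.37 (SE) with an adjusted p of 0.0189 by edgeR's quasi-likelihood test. The value rested on 164 to 267 counts in KO-labelled and 55 and 49 counts in WT libraries, and all 3 Fcrla transcripts in the table carried identical counts. The adjusted p was 0.109 when KO library 3 was left out, 0.226 when WT library 1 was, and 0.279 when WT library 2 was, which ended the call, while the log2 fold change stayed between 1.66 and 2.21.

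Of 20 relatives of the 9 genes, 9 were tested and edgeR called 0, against 1.97% of all tested genes. DESeq2 and limma also called 0, and 0 had an unadjusted p under 0.05. Of the Fc receptor-like genes, Fcrl6 and Fcrls had 0 counts in every library, Fcrlb reached 0.0506 CPM and Fcrl5 0.256 CPM at most. Fcrl1, a B cell surface receptor, stood at 2.98 ± 0.481 CPM in the KO-labelled group and 1.4 ± 1.09 CPM in the WT group, with a log2 fold change of 1.07 ± 0.55 that missed the threshold (adjusted p = 0.42). Whether Fcrla and Fcrl1 differed in their change was not tested.

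Pou2af1 encodes a B cell coactivator that binds together with the octamer factors Pou2f1 and Pou2f2. It stood at 7.95, 10.2 and 20.4 CPM in KO-labelled libraries 1 to 3, against 5.30 and 3.99 CPM in WT libraries 1 and 2. Library KO 3 was the highest by a wide margin, and both WT libraries lay below all KO-labelled ones. The log2 fold change of 1.47 ± 0.38 did not pass (adjusted p = 0.0857, edgeR), on 287 to 804 counts in KO-labelled and 159 and 156 counts in WT libraries. It passed without KO library 1 (adjusted p = 0.0038), without KO library 2 (adjusted p = 0.0465) and with DESeq2 (adjusted p = 0.00596). Without KO library 3 the log2 fold change was 0.97 (adjusted p = 0.275). Its partners did not show this order: Pou2f1 stood at 98.8 ± 16.3 CPM in the KO-labelled group and 116 ± 0.00582 CPM in the WT group (log2 fold change -0.23 ± 0.12, adjusted p = 0.447), and Pou2f2 at 29.8 ± 4.39 CPM in the KO-labelled group and 33.5 ± 0.429 CPM in the WT group (-0.17 ± 0.15, adjusted p = 0.685).

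Ebf1, the factor that starts the B cell programme, stood at 0.609, 2.23 and 0.658 CPM in KO-labelled libraries 1 to 3, against 3.17 and 0.691 CPM in WT libraries 1 and 2. WT library 1 and KO library 2 were high, the other 3 were alike, and the groups overlapped. The log2 fold change was -0.72 ± 0.79 (adjusted p = 0.758, edgeR). Without WT library 1 its sign turned, to 0.76 (adjusted p = 0.897). Its relatives Ebf2, Ebf3 and Ebf4 did not exceed 0.367 CPM in any library.

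Pax5, the factor that fixes commitment, had 6, 3 and 0 counts in KO-labelled libraries 1 to 3, against 20 and 3 counts in WT libraries 1 and 2. In CPM it was 0.166, 0.0768 and 0 in KO-labelled and 0.667 and 0.0767 in WT libraries. It was highest in WT library 1, and 3 of the other libraries were at or below 3 counts, the floor taken here. Pax2, Pax3 and Pax6 had 0 counts throughout and Pax8 reached 0.354 CPM.

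The surrogate light chain genes Vpreb1 and Igll1, which lie close together on chromosome 16 and are shown above, were read at low depth. Vpreb1 stood at 0.332, 1.48 and 0.709 CPM in KO-labelled libraries 1 to 3, against 1.13 and 0.281 CPM in WT libraries 1 and 2. Igll1 stood at 0.609, 0.947 and 0.076 CPM in KO-labelled libraries 1 to 3, against 1.97 and 0.333 CPM in WT libraries 1 and 2. KO library 2 and WT library 1 were the highest pair for both genes, and the groups overlapped. Vpreb1 had 12 to 58 counts in KO-labelled libraries, against 34 and 11 counts in WT libraries, and Igll1 had 3 to 37 counts in KO-labelled libraries, against 59 and 13 counts in WT libraries. The log2 fold changes were 0.26 ± 1.01 for Vpreb1 (adjusted p = 0.945) and -1.07 ± 1.11 for Igll1 (adjusted p = 0.744), and both turned sign when a library was left out. An exon of Top3b overlaps Vpreb1 on the opposite strand in the GENCODE annotation, and strand use in counting is not given, so reads of the pair cannot be told apart. Exons of 2 genes likewise overlap Pax5, and none overlaps the other 7. Vpreb2, a near copy of Vpreb1, had 0.102 CPM at most.

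The receptor chain Cd79a stood at 2.96, 3.89 and 3.62 CPM in KO-labelled libraries 1 to 3, against 4.34 and 2.10 CPM in WT libraries 1 and 2. The WT libraries enclosed the KO-labelled ones (log2 fold change 0.12 ± 0.40, adjusted p = 0.936). Its partner Cd79b was the most abundant of the 9 genes, at 52.8, 44.8 and 43.1 CPM in KO-labelled libraries 1 to 3, against 42.8 and 40.2 CPM in WT libraries 1 and 2. The groups did not overlap, but the distance between KO library 3 and WT library 1 was small against the spread among KO-labelled libraries. Its log2 fold change of 0.18 ± 0.13 did not pass (adjusted p = 0.596).

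Blnk, the adaptor that couples Syk to phospholipase signalling, stood at 6.62, 12.1 and 9.93 CPM in KO-labelled libraries 1 to 3, against 6.54 and 6.65 CPM in WT libraries 1 and 2. KO libraries 2 and 3 were high and KO library 1 lay between the WT libraries. The log2 fold change of 0.53 ± 0.28 did not pass (adjusted p = 0.432). Of its relatives, Lcp2 had a log2 difference of 0.08 ± 0.08 (adjusted p = 0.733) and Clnk one of -0.47 ± 0.26 (adjusted p = 0.487). In all, 3 of the 8 tested B lineage genes, Fcrla, Pou2af1 and Cd79b, had every KO-labelled library above every WT library, and 0 had the opposite. Among all tested genes 32.8% did not overlap, 16.5% with the KO-labelled libraries above and 16.3% with them below.

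**Figure D2:**
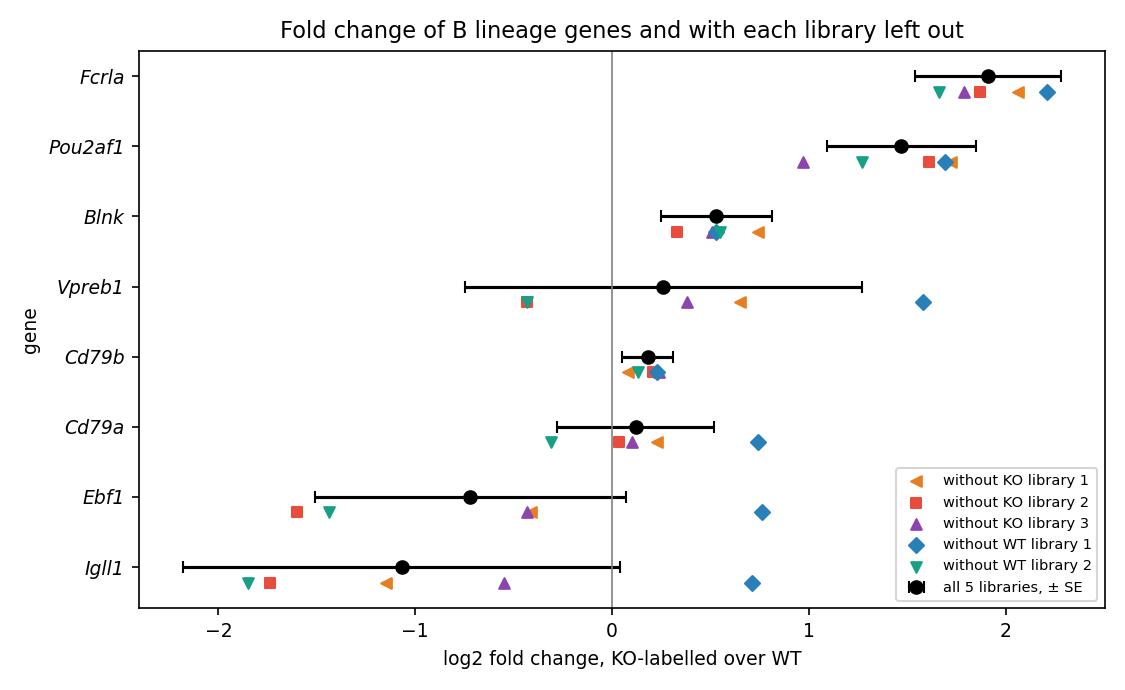
Log2 fold change of the 8 tested B lineage genes, KO-labelled over WT (horizontal axis), with its SE (black points and bars, all 5 libraries) and without each library in turn (coloured marks). Fcrla, Pou2af1, Blnk and Cd79b stayed above 0 in every case, while Ebf1, Igll1, Vpreb1 and Cd79a turned sign in at least 1.

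Divided by transcript length, the levels of the 9 genes could be ordered. Cd79b stood far above the rest at 39.3 ± 4.35 CPM per kilobase in KO-labelled and 34.7 ± 1.52 CPM per kilobase in WT libraries. In KO-labelled libraries Pou2af1 (5.03 ± 2.60), Blnk (4.55 ± 1.31), Fcrla (3.45 ± 0.678) and Cd79a (2.4 ± 0.327 CPM per kilobase) followed. Pou2af1, Blnk and Fcrla overlapped in these libraries, and Fcrla, at 2.7 or more, lay just above Cd79a, at 2.67 or less. Vpreb1 (1.10 ± 0.767) and Igll1 (0.625 ± 0.505) came next and overlapped. In WT libraries the order after Cd79b was Blnk (3.14 ± 0.0385), Cd79a (2.21 ± 1.09), Pou2af1 (1.82 ± 0.364), Igll1 (1.32 ± 1.33), Vpreb1 (0.924 ± 0.787) and Fcrla (0.920 ± 0.245 CPM per kilobase), and of these neighbours only Blnk had both libraries above those of the next gene. Ebf1 and Pax5 were lowest in both groups. Ebf1 stood at 0.340 ± 0.269 CPM per kilobase in KO-labelled and 0.564 ± 0.512 in WT libraries over a transcript of 3422 bases, or at 0.195 ± 0.154 in the KO-labelled group and 0.323 ± 0.293 in the WT group over the longest, of 5981 bases. Cd79b and Cd79a, whose proteins pair in the receptor, stood at unequal RNA levels in every library.

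An arrangement shared by several of the genes was noticed after their values were seen. For Ebf1, Vpreb1, Igll1 and Cd79a, WT library 1 and KO library 2 were the highest pair, which made 4 of 8 tested B lineage genes against 7.11% of all tested genes. Pax5 was also highest in WT library 1, followed by KO library 1. Within the WT group, the ratio of WT library 1 to WT library 2 was 4.59 for Ebf1, 4.03 for Vpreb1 and 5.92 for Igll1. For Vpreb1 and Igll1 it rested on 11 and 13 counts in WT library 2. It was 2.07 for Cd79a, 1.46 for Fcrla, 1.33 for Pou2af1, 1.06 for Cd79b and 0.983 for Blnk. Of 2658 tested genes with a mean of 0.5 to 5 CPM and reads in WT library 2, 2.48% had WT library 1 at least 4 times WT library 2. The cut of 4 lies just under the ratios of Ebf1, Vpreb1 and Igll1, so this share describes them and does not test them. Vpreb3, a pre-B cell receptor chaperone (2.4 CPM in WT library 1 and 0.819 CPM in WT library 2, a ratio of 2.93), had the same highest pair.

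Among genes of the preceding lymphoid step, the interleukin 7 receptor gene Il7r and Akap12 had that highest pair too, with WT library 1 over WT library 2 at ratios of 1.26 and 2.14, but Dntt, Rag1 and Rag2 did not. Dntt, which adds bases at receptor gene joints, stood at 533, 842 and 546 CPM in the KO-labelled group and 643 and 689 CPM in the WT group. The recombinase gene Rag1 had 4.74 and Rag2 4.6 CPM in WT library 1, against 5.09 and 7.21 CPM in WT library 2. KO library 2 was the highest library for 11 of the 22 early lymphoid and pro-B genes, among them Dntt, Rag1, Rag2 and the cytokine receptor Flt3, against 17.0% of all tested genes.

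Searching 12728 other tested genes of at least 1 CPM for the levels most like each B lineage gene gave named neighbours. Likeness was the root mean square difference in log2 CPM, centred on the mean of the 5 libraries. Nearest to Ebf1 was Vpreb3, at 0.288, followed by the microRNA entry Mir7077, at 0.33. Nearest to Fcrla was Ly6d, a surface protein of B-committed lymphoid progenitors, at 0.039, followed by the adhesion gene Cdh1 at 0.239. Ly6d stood at 8.80, 12.5 and 12.9 CPM in KO-labelled libraries 1 to 3, against 3.50 and 2.48 CPM in WT libraries 1 and 2. Nearest to Pou2af1 were Slc45a3 (0.137) and the scavenger receptor Cd36 (0.211), and nearest to Blnk were the nuclear receptor Nr4a2 (0.058) and Ppm1l (0.071). Cd79a was nearest to Ovol3 (0.086) and Mfsd9 (0.125). Cd79b was nearest to Vapa (0.014) and Stoml1 (0.016), and all 3 differed little between libraries. With 5 libraries, likeness describes these samples only.

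**Figure D3:**
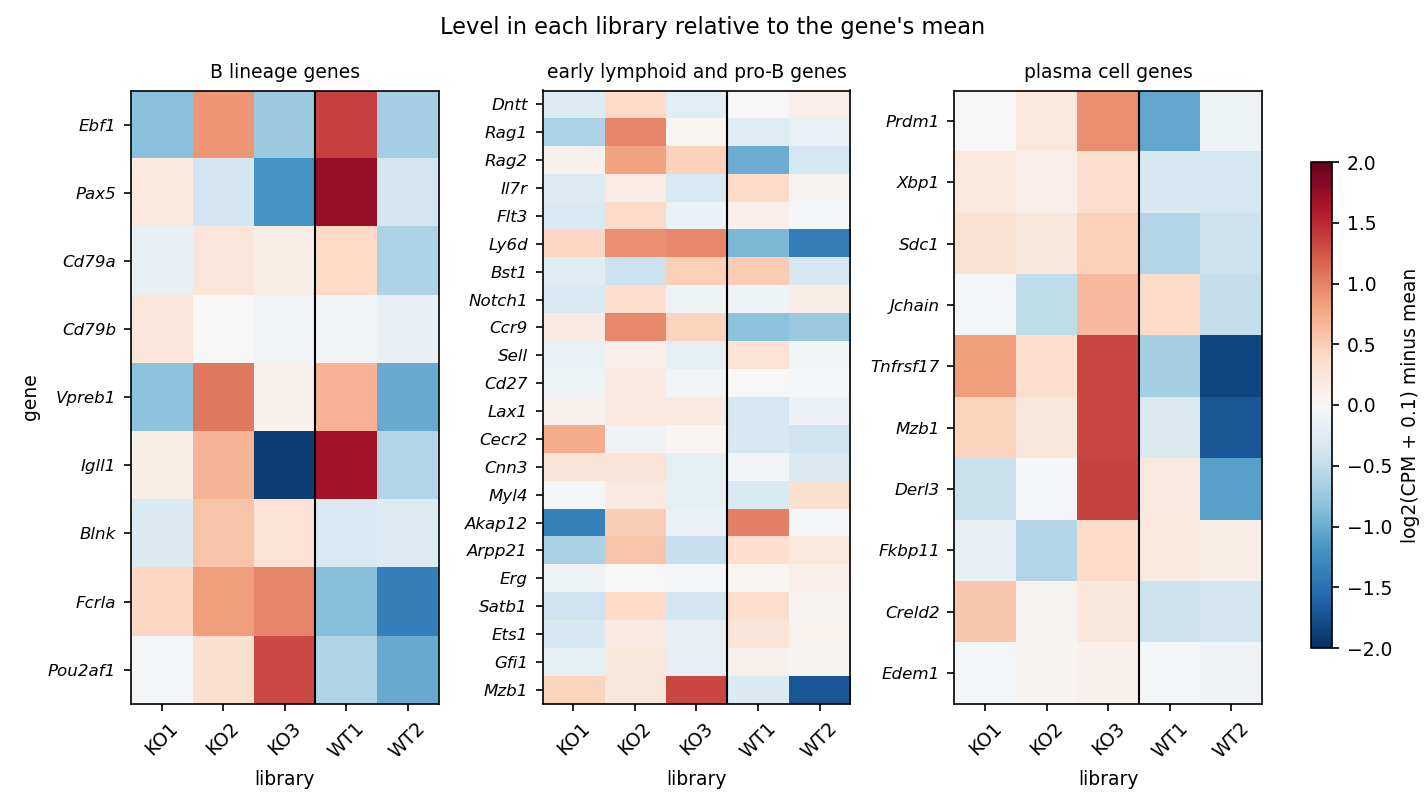
Level of each gene in each library (columns, KO-labelled left of the line and WT right of it) as log2(CPM + 0.1) minus the gene's mean, for the 9 B lineage genes, the early lymphoid and pro-B list and the plasma cell list. Ebf1, Vpreb1 and Igll1 are high in KO library 2 and WT library 1, Fcrla follows Ly6d, and Pou2af1 is highest in KO library 3 with most plasma cell genes.

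In the wider B lineage, 6 of 100 tested genes over 5 lists rose in the KO-labelled libraries and 0 fell. Of all tested genes, 0.79% rose and 1.18% fell. At an unadjusted p under 0.05, 14 were higher and 6 lower, DESeq2 called 9 higher and 0 lower, and limma 8 higher and 1 lower. Among all 14565 tested genes, 2007 had an unadjusted p under 0.05. DESeq2 called 264 of all genes higher and 311 lower, and limma 247 higher and 377 lower. The median log2 fold change of the 100 genes was 0.058, against 0.001 over all tested genes. The B lineage genes and all lists here and below were chosen with earlier results of these data known. Shares set beside those of all tested genes therefore describe the lists and do not test them. The 6 genes called by edgeR were Irf4, Ly6d, Ccr9, Xbp1, Sdc1 and Creld2. All 6 lost their call without either WT library, and without KO library 3 Ly6d was the 1 gene called.

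Of 24 transcription factors of the lineage, 1 rose and 0 fell, against 0.79% and 1.18% of all tested genes, with a median of -0.078. An unadjusted p under 0.05 was found for 3 higher and 3 lower. DESeq2 called 1 higher and 0 lower, and limma 2 higher and 0 lower. Irf4, which acts in pre-B cell receptor signalling and again in plasma cells, rose 3.16-fold (7.34, 8.65 and 13.7 CPM in KO-labelled, against 3.0 and 3.25 CPM in the WT group, adjusted p = 0.0174). Like Pou2af1 it was highest in KO library 3. Myb and Ikzf1, the most abundant factors of the list, had log2 fold changes of 0.16 ± 0.08 and 0.10 ± 0.09 (adjusted p = 0.406 and 0.712).

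Of 24 receptor signalling genes, edgeR called 0 in either direction, against 1.97% of all tested genes. DESeq2 and limma also called 0, and 1 was higher and 2 lower at an unadjusted p under 0.05 (median 0.096). The kinase gene Syk, upstream of Blnk, stood at 369 ± 32 CPM in the KO-labelled group and 350 ± 0.225 CPM in the WT group, with a log2 fold change of 0.07 ± 0.09 (adjusted p = 0.779). The adaptor Dapp1, the most abundant of the list, stood at 673 ± 9.45 CPM in the KO-labelled group and 613 ± 8.12 CPM in the WT group (adjusted p = 0.449). The phospholipase Plcg2 stood at 528 ± 29.6 CPM in the KO-labelled group and 579 ± 12 CPM in the WT group (adjusted p = 0.505). These genes are also used outside the B lineage. The B cell kinase gene Blk had 0.0831, 2.74 and 2.41 CPM in the KO-labelled group and 0.901 and 1.46 CPM in the WT group.

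Of 21 tested B cell surface and mature B cell genes, edgeR called 0, against 1.97% of all tested genes. There were 0 higher and 1 lower at an unadjusted p under 0.05, 0 called by DESeq2 and 1 lower by limma (median 0.020). The most abundant, Spn and Cd24a, which progenitors also express, had log2 fold changes of -0.15 ± 0.07 and -0.04 ± 0.11. The mature B cell marker Ms4a1 was low, and lay at 0.277, 0.461 and 2.33 CPM in the KO-labelled group and 0.400 and 0.333 CPM in the WT group, highest in KO library 3.

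Of 22 early lymphoid and pro-B genes, 2 rose and 0 fell, against 0.79% and 1.18% of all tested genes (median -0.031). An unadjusted p under 0.05 was found for 5 higher and 0 lower. DESeq2 called 4 higher and 0 lower, and limma 3 higher and 0 lower. Ly6d rose 3.82-fold (adjusted p = 0.00443) and the chemokine receptor Ccr9 rose 2.58-fold (adjusted p = 0.0433). Rag2 had a log2 difference of 1.13 ± 0.28 (adjusted p = 0.0674) and Dntt one of -0.06 ± 0.19 (adjusted p = 0.939).

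Of 10 plasma cell genes, 3 rose and 0 fell, against 0.79% and 1.18% of all tested genes, with a median log2 fold change of 0.77. They were the transcription factor Xbp1 (1.47-fold, 217 ± 18.6 CPM in the KO-labelled group and 148 ± 2.69 CPM in the WT group, adjusted p = 0.00746), the syndecan Sdc1 (1.81-fold, adjusted p = 0.0147) and the secretory pathway gene Creld2 (1.61-fold, adjusted p = 0.0203). Several cell types express these 3 genes, and the list was chosen with earlier results of these data known. DESeq2 called 5 of the list higher and 0 lower, and limma 3 higher and 0 lower. An unadjusted p under 0.05 was found for 6 higher and 0 lower. Of the list, 9 of 10 genes were highest in KO library 3, as was Pou2af1, against 15.3% of all tested genes. Mzb1, a chaperone of antibody assembly, stood at 7.14, 6.14 and 13.3 CPM in the KO-labelled group and 4.24 and 1.53 CPM in the WT group (adjusted p = 0.119), and Jchain, the joining chain of secreted antibody, at 363, 263 and 585 CPM in the KO-labelled group and 490 and 270 CPM in the WT group (adjusted p = 0.968).

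**Figure D4:**
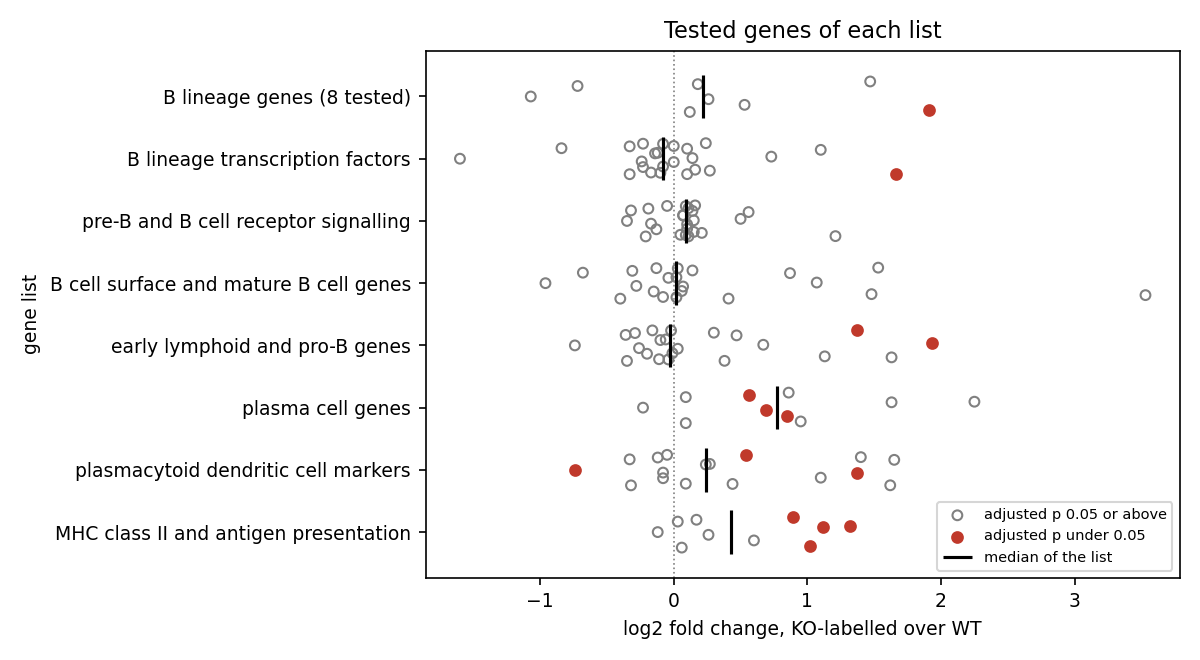
Log2 fold change, KO-labelled over WT, of every tested gene in 8 lists (rows); filled points have an adjusted p under 0.05 and black bars are list medians. Fcrla is the filled point among the B lineage genes, and no gene of the receptor signalling or B cell surface lists is filled.

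Markers of other cells moved with some of these values. Plasmacytoid dendritic cells express B lineage genes as well. Their list shares Ccr9 with the early lymphoid list, and Tcf4, Spib and Irf8 with the transcription factor list. By edgeR, 2 of 17 tested markers of theirs rose, Ccr9 and Ly6c2, against 0.79% of all tested genes. Lag3 alone fell (log2 fold change -0.74 ± 0.16, adjusted p = 0.0377, edgeR), against 1.18%. All 3 calls were lost without either WT library (adjusted p 0.137 to 0.545) and without KO library 3 (0.113 for Ccr9, 0.176 for Ly6c2 and 0.175 for Lag3), and that of Ccr9 also without KO library 2 (0.138). Siglech, a defining marker, stood at 5.79, 4.02 and 2.76 CPM in the KO-labelled group and 1.37 and 1.36 CPM in the WT group (adjusted p = 0.101), and 3 of 19 markers, Klk1, Cd300c and Cd209d, were under 1 CPM in every library. The 19 markers summed to 595 to 719 CPM in the KO-labelled group and 682 and 637 CPM in the WT group, of which Tcf4 (mean over all libraries 192 CPM), Runx2 (134 CPM) and Irf8 (113 CPM), genes of other progenitors too, made up most. Of the 17 tested markers, 7 had every KO-labelled library above every WT library, among them Siglech, Spib, Bst2 and Atp1b1, and 3 had the opposite, against 16.5% and 16.3% of all tested genes. By the same edgeR test, 4 of 10 MHC class II genes rose, against 0.79% of all tested genes, Cd74, H2-Aa, H2-Ab1 and H2-Eb1 (2.5-fold, 2.03-fold, 1.86-fold and 2.17-fold), and 7 of the 10 were highest in KO library 3, against 15.3% of all tested genes. Without WT library 1 all 4 calls were lost (adjusted p 0.0908 to 0.199), and without WT library 2 that of Cd74 passed (0.0439) and the other 3 did not (0.0811 to 0.109). Of 15 tested T and NK cell markers, 0 rose and Klrb1c fell (adjusted p = 0.00826, but 0.217 without WT library 1 and 0.241 without WT library 2), against 1.18% lower of all tested genes, and their sum was 181 to 218 CPM in the KO-labelled group and 211 and 218 CPM in the WT group. Nkg7 made up much of it, at 93.1 to 104 CPM in the KO-labelled group and 101 and 98.1 CPM in the WT group. Cd3e lay at 0.870 to 3.24 CPM in the KO-labelled group and 1.37 and 0.691 CPM in the WT group. Of the 15 markers, 3 had every KO-labelled library above every WT library (Cd3g, Cd8b1 and Bcl11b), against 16.5% of all tested genes. The opposite held for 3 (Cd4, Ncr1 and Klrb1c), against 16.3%. The part of these cells in the change of Fcrla was not tested.

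Of 9 tested sort antigens edgeR called 0, against 1.97% of all tested genes. There was 1 higher and 1 lower at an unadjusted p under 0.05, 0 higher and 1 lower by DESeq2 and 0 by limma. Kit stood at 1119 ± 29.6 CPM in the KO-labelled group and 1216 ± 15.5 CPM in the WT group, and Ly6a, which encodes Sca1, at 97.4 ± 7.04 CPM in the KO-labelled group and 78.4 ± 5.03 CPM in the WT group. Of lineage antigens, Cd4, Cd8a and Cd5 reached 7.47, 3.12 and 1.69 CPM at most. Itgam stood at 38.7, 54.6 and 85.9 CPM in the KO-labelled group and 96.4 and 91.7 CPM in the WT group. Ptprc, whose B220 form marks B cells and whose other forms are on all white cells, stood at 351 ± 14 CPM in the KO-labelled group and 423 ± 24.8 CPM in the WT group (adjusted p = 0.131, edgeR).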

How the data were processed

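The deposited table gives raw counts, made by the authors, for 33862 RefSeq transcripts and 5 libraries. Per the labels' protocols a stranded mRNA kit was used. The submitters' processing notes name featureCounts, Subread 1.4.5-p1, STAR and the build mm9 (NCBIM37). Settings, strand use included, are not stated in these sources. Transcripts were named from RefSeq (33485) or GENCODE (188), and 189 kept their accession. The transcript with most counts stood for a gene. After filterByExpr (minimum count 10) and TMM scaling, edgeR 4.0.16 in R 4.3.3 gave a two-sided quasi-likelihood test with robust estimation, and p-values were adjusted by Benjamini-Hochberg. The procedure was tested on simulated data. The common coefficient of variation was 18.9%. Alternatives were DESeq2 1.42.0, limma 3.58.1 with sample weights, other scalings and filters, summed transcripts, a fit with no robust estimation, the replicate number as a term, and leaving out each library. Transcript lengths came from GENCODE.

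The B lineage genes and the lists were chosen with earlier results of these data known. Named genes were the 9 genes, up to 4 called genes of each list or, with fewer than 2 called, its 2 most abundant, and the 2 genes nearest to each B lineage gene of at least 1 CPM. Others (relatives of the 9 genes, Il7r, Akap12, Ms4a1, Syk, Blk, Mzb1, Jchain, Dntt, Rag1, Rag2, Flt3, Pou2f1, Pou2f2, plasmacytoid dendritic, T and NK cell markers and sort antigens) were named after their values were seen. Some genes are not reported here.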

Additional observations from a re-analysis of the deposited data

How the results depend on the processing

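All 14 alternatives were run. Across 44 named genes and those alternatives, 544 of 615 values kept their direction and side of the threshold. The count of all called genes, 287, was 575 with DESeq2, 624 with limma and sample weights, 455 with no count filter, and 6 to 675 with 1 library left out. The count of B lineage genes called was 2 with DESeq2 (Fcrla and Pou2af1) and 0 to 2 with 1 library left out; the count over the 5 wider lists, 6, was 0 to 9. Leaving out a WT library leaves a lone WT sample, whose spread is taken to be that of the KO-labelled ones. With 1 library left out, log2 fold changes that turned sign ranged from -1.6 to 0.76 for Ebf1, -0.31 to 0.74 for Cd79a, -0.43 to 1.58 for Vpreb1, -1.85 to 0.71 for Igll1, -1.32 to 0.37 for Vpreb3, -1.07 to 0.49 for Mir7077, -0.21 to 0.86 for Ovol3, -0.26 to 0.77 for Mfsd9, -0.18 to 0.038 for Cd24a and -0.018 to 0.068 for Nkg7 (-0.015 with limma). None of these was called, and the cause was not tested.

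In the fit with a replicate block, 160 genes were called in all, 0 of the B lineage genes and 3 of the wider lists; the log2 fold change of Fcrla was 1.79 (adjusted p = 0.0853). The numbers are not said to pair libraries. Deviations from the group means correlated, across genes, at 0.043 for number 1 and 0.017 for number 2. With 2 WT libraries the deviations of 1 mirror those of the other, so these values cannot tell whether the numbers pair libraries. Pax5, Vpreb1 and Igll1 had 0 to 59 counts per library and varied widely within a group; counting error and spread between libraries were not separated for them.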
